A study of Homo sapiens with 10 samples.

Results

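A set of 10 genes of TGF-beta, activin and GDF15 signalling was examined in irradiated proximal tubular cells. They were chosen by symbol and comprise the ligand genes TGFB1, TGFB2, TGFB3, INHBA, INHBB and GDF15, the receptor genes TGFBR1 and TGFBR2, and the inhibitor genes SMAD7 and FST. All 10 were found among the 61587 rows of the count table, and 8 of them were among the 19006 genes whose counts summed to 200 or more over the 10 samples, the limit for testing. INHBA, with 132 counts in all, and FST, with 40, fell below it. RPTEC/TERT1 is a human proximal tubular epithelial line immortalised with telomerase. The 5 samples labelled irradiated received 10 Gy from a Caesium-137 gamma source, the 5 labelled control had a mock procedure with no dose, and RNA was collected on day 7. All 10 samples came from 1 cell line and replicates 1 to 5 are numbered in both groups, so the p-values measure the spread between these samples and not between donors. Depth was 78081911 to 131555873 counts in control and 66269311 to 101594948 in irradiated samples.

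Ligands of this family are dimers that bring together type I and type II receptor kinases on the cell surface. TGF-beta binds TGFBR2, which then activates TGFBR1, and the receptors phosphorylate SMAD2 and SMAD3, which join SMAD4 and enter the nucleus. Activins, dimers of the INHBA or INHBB product, use other receptors of the family but the same SMADs. SMAD7 blocks the type I receptors and is itself a target of the pathway, and follistatin (FST) binds activin outside the cell. GDF15 is a distant member of the family that acts through GFRAL and RET and is a known target of p53 and of the integrated stress response. In the injured kidney TGF-beta is best known for driving fibrosis.

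Control and irradiated samples held epithelial transcripts and some markers of the proximal tubule, but 3 defining markers of that segment were almost absent. The epithelial markers EPCAM, CDH1, KRT8, KRT18, KRT19, PAX8 and CDH16 summed to between 3091 and 3383 CPM (TMM-normalised, a gene's counts relative to its sample's normalised total, the unit of expression used throughout) in control and 3126 to 4322 CPM in irradiated samples, with KRT8 the most abundant. Of the proximal tubule markers, LRP2 (17 counts over all samples), HNF4A (12 counts) and SLC34A1 (86 counts) stayed below the limit for testing. ANPEP (247.8 CPM in control and 295.8 CPM in irradiated samples), GGT1 (10.0 and 12.5 CPM) and CUBN (4.37 and 4.76 CPM) were expressed and not called. CDH6 rose from 37.7 to 246.2 CPM (log2 fold change 2.7, adjusted p = 2.13e-05), and AQP1 fell from 1.82 to 1.19 CPM (-0.61, adjusted p = 0.00635). Fibroblast or mesenchymal markers (8 genes, COL1A1 the most abundant) summed to 15.9 to 23.5 CPM in control and 28.6 to 40.2 CPM in irradiated samples. Only COL1A1 and DCN of these 8 were tested and both rose, while LUM (2 counts), COL3A1 (4 counts), COL1A2, PDGFRA, PDGFRB and THY1 were below the limit. Endothelial markers (5 genes, CDH5 the most abundant) summed to 1.39 to 2.48 CPM in control and 4.17 to 6.11 CPM in irradiated samples. CDH5 (0.596 to 3.31 CPM, log2 fold change 2.48, adjusted p = 0.000255) and PECAM1 (0.72, adjusted p = 0.00519) were higher, VWF was not called, and KDR had 2 counts. TIE1, below the limit with 57 counts, went from 0.0965 to 0.016 CPM and was lower in all 5 pairs. Leukocyte markers (5 genes, CD14 the most abundant) summed to 0.554 to 0.844 CPM in control and 0.871 to 1.34 CPM in irradiated samples, which did not overlap. CD14 was higher (0.268 to 0.57 CPM, log2 fold change 1.09, adjusted p = 0.000479), and CD3E had 3 counts. PTPRC was tested and not called (0.295 to 0.353 CPM, log2 fold change 0.27, adjusted p = 0.283). CD68 (27 counts, 0.0385 to 0.0152 CPM) and LYZ (67 counts, 0.0671 to 0.0712 CPM) were below the limit. The part of other cells in the results below was not tested, and in bulk samples fewer cells expressing a gene cannot be told apart from less RNA per cell.

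Control replicate 3 stood apart from the other controls. Pairs of control libraries that included it had a chi-square per gene of 102 to 187, against 13.1 to 88.7 for the other pairs, and it held 418.2 CPM of GDF15 where the other 4 controls held 90.6 to 157.4 CPM. Fitted changes of GDF15 and of the named genes farthest from the other controls in this sample are given with and without replicate 3.

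Of the 8 genes tested, TGFBR2 was higher in irradiated RPTECs, TGFB2, INHBB and SMAD7 were lower, and TGFB1, TGFB3, GDF15 and TGFBR1 were not called. Differences were called at an adjusted p-value under 0.05 over all 19006 genes by edgeR's quasi-likelihood test with replicate number as a block. This call was common across the transcriptome: 8857 genes, or 46.6%, passed, 4550 higher (23.9%) and 4307 lower (22.7%). The 4 calls in 8 genes are therefore near the background share. In CPM, control and irradiated samples did not overlap for 4 of the 8, the called genes, and for 5072 (26.7%) of all genes tested.

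The 4 called genes start at the following promoters, shown because expression at these genes differed between the groups. Each window, from RefSeq on GRCh38.p14, holds the 240 bases before the annotated start and the first 10 from it, 5′ to 3′ on the gene's strand, with motif matches in capitals. The TGFB2 window lies at chr1:218345096-218345345 (plus strand), that of INHBB at chr2:120345896-120346145 (plus strand), that of TGFBR2 at chr3:30606361-30606610 (plus strand) and that of SMAD7 at chr18:48950956-48951205 (minus strand). TGFBR2 has 2 and SMAD7 has 3 annotated starts in the table, of which 1 is shown.
TGFB2: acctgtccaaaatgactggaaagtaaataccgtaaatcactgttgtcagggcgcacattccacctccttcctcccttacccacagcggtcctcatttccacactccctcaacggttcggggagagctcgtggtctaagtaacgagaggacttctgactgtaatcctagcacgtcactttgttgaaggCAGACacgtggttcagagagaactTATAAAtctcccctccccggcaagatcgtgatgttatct
INHBB: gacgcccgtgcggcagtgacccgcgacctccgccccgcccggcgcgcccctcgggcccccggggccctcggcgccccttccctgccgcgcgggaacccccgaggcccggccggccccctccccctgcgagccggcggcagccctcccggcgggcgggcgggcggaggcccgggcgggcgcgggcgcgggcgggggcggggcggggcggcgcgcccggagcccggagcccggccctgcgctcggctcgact
TGFBR2: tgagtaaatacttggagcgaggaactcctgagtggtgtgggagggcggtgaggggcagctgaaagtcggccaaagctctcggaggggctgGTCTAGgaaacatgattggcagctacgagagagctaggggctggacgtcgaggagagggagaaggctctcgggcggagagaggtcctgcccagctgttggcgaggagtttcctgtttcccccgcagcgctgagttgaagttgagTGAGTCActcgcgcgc
SMAD7: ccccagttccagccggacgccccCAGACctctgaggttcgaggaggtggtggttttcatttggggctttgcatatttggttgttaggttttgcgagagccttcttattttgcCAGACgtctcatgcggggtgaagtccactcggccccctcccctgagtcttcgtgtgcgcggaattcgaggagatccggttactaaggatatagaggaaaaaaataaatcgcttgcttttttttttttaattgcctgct
In all, 4 motifs were searched on both strands: the SMAD box CAGAC, the part of the SMAD palindrome GTCTAG, the AP-1 site TGANTCA and the TATA box TATAAA. With the base before the start counted as -1, CAGAC began at -53 in TGFB2 and at -217 and -128 in SMAD7, and 38.9% of 35116 promoter windows of this length held it. GTCTAG began at -150 in TGFBR2 (4.92% of windows) and an AP-1 match at -6 (6.67% of windows). TATAAA began at -29 in TGFB2 (10.5% of windows). The INHBB window, with a GC content of 88.8%, held none of the 4. These matches describe letters and not bound sites.

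Among the TGF-beta ligands, TGFB2 fell and TGFB1 and TGFB3 were not called. TGFB2, on chromosome 1 from 218345336 to 218444619, measured 33.4, 23.7, 35.0, 32.9 and 34.5 CPM in controls 1 to 5 and 13.7, 20.4, 11.2, 16.7 and 16.2 CPM in irradiated samples 1 to 5. Control replicate 2 was lowest and irradiated replicate 2 highest of their groups, and the groups did not overlap. The fitted change was -1.05 on the log2 scale (SE 0.18, adjusted p = 0.00231), a fold of 0.485, with all 5 pairs lower. Within pairs the log2 difference ran from -1.64 in pair 3 to -0.22 in pair 2. Exons of genes on the opposite strand cover 11.6% of TGFB2 exon bases, where its counts can be too low.

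TGFB1 (chromosome 19, 41301587 to 41353922), the ligand most studied in fibrosis, measured 182.1, 145.3, 208.1, 168.5 and 171.4 CPM in controls and 143.8, 150.4, 152.2, 157.9 and 152.8 CPM in irradiated samples. The irradiated values lay close together, within the range of the controls except for replicate 1, which was below them all, and 4 of 5 pairs were lower. The log2 fold change was -0.20 (SE 0.07, adjusted p = 0.0566) and passed the threshold under several other settings given below. TGFB3 (chromosome 14, 75958097 to 75983011) was the least abundant TGF-beta, at 4.79, 4.98, 3.41, 4.32 and 5.07 CPM in controls and 4.21, 5.61, 4.48, 3.88 and 4.52 CPM in irradiated samples. Its groups overlapped, with a log2 fold change of 0.01 (SE 0.11, 2 SE to either side -0.21 to 0.23, adjusted p = 0.942).

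The balance of TGFB2 to TGFB1 shifted within samples. The log2 ratio per kilobase of exon was -3.35 ± 0.13 (SD, n = 5) in control and -4.19 ± 0.32 in irradiated samples, from 0.098 to 0.0546 on a linear scale. The difference of -0.84 had an exact two-sided permutation p of 0.00794, the smallest that 5 against 5 allows, also after adjustment over the 2 ratios computed. Sign flips of the 5 pairs gave an exact p of 0.0625, the smallest they can give.

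The activin genes moved unequally. INHBB (chromosome 2, 120346136 to 120351803), which encodes the beta B subunit, measured 150.1, 115.0, 118.1, 141.2 and 143.2 CPM in controls and 61.6, 88.5, 59.1, 84.3 and 84.0 CPM in irradiated samples. All irradiated values were below all controls, with replicates 1 and 3 lowest. The log2 fold change was -0.83 (SE 0.11, adjusted p = 0.00088), a fold of 0.561. INHBA (chromosome 7, 41667168 to 41705834), the beta A subunit, was near the detection limit: its counts were 0, 8, 0, 2 and 5 in controls and 19, 17, 19, 26 and 36 in irradiated samples. At 3 counts a gene would read between 0.0215 and 0.0448 CPM, and INHBA reached 0.192 to 0.407 CPM in irradiated samples. Every irradiated sample exceeded every control, although all 10 values were low. In a fit with a minimum of 1 count, INHBA had a log2 fold change of 3.34 (SE 0.42, adjusted p = 1.18e-06), where 9497 of 44263 genes (21.5%) were called, 4521 of them higher (10.2% of all). The ratios of INHBA to FST and to INHBB were not computed, because controls had 0 counts.

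FST (chromosome 5, 53480626 to 53487134), the activin-binding inhibitor, had 0, 5, 3, 2 and 0 counts in controls and 5, 6, 5, 7 and 7 in irradiated samples. Irradiated replicates 1 and 3 equalled the highest control in counts, though not in CPM, where the lowest irradiated value (0.0505) exceeded the highest control (0.0358). With a minimum of 1 count the log2 fold change was 1.98 (SE 0.66, adjusted p = 0.034), on 40 counts in all. SMAD7 (chromosome 18, 48919853 to 48950965) was well expressed and fell. It measured 72.1, 66.6, 56.3, 76.3 and 78.4 CPM in controls and 45.3, 53.4, 40.1, 52.8 and 51.3 CPM in irradiated samples. Replicate 3 was lowest in both groups, which did not overlap. The log2 fold change was -0.53 (SE 0.06, adjusted p = 0.000276), and the pairs lay between -0.67 and -0.32.

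**Figure D1:**
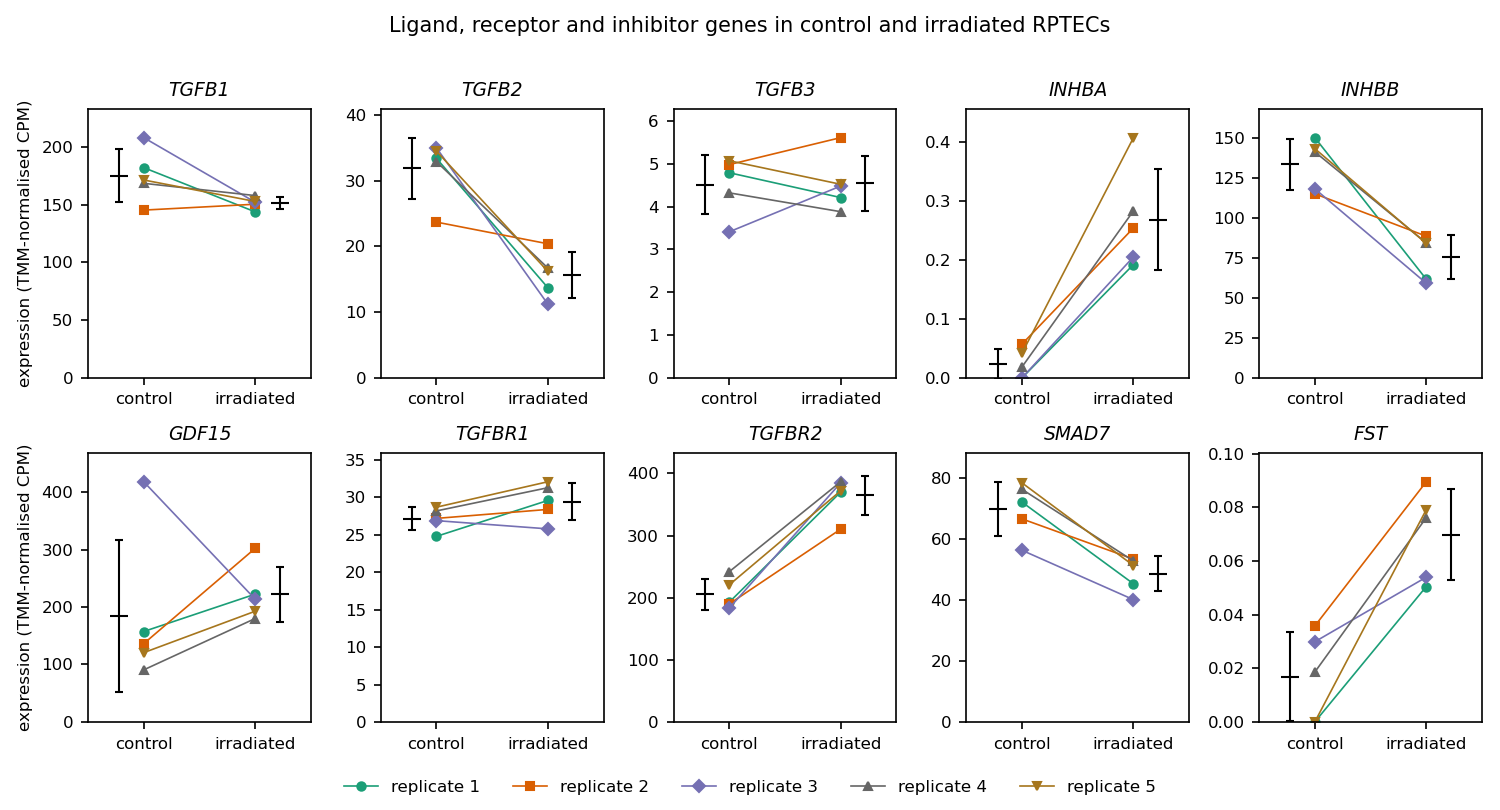
TMM-normalised CPM (vertical axes, each from 0) of the 10 genes in control and irradiated samples, with lines joining samples of the same replicate number and black bars for the mean and SD of 5 samples. TGFBR2 rises and TGFB2, INHBB and SMAD7 fall in all 5 pairs, and in the GDF15 panel control replicate 3 lies at 418.2 CPM, above every other sample.

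Of the receptors, TGFBR2 rose and TGFBR1 was not called. TGFBR2 (chromosome 3, 30606601 to 30694142) measured 192.7, 189.9, 183.2, 241.8 and 220.6 CPM in controls and 370.0, 310.3, 384.9, 386.6 and 372.0 CPM in irradiated samples. The groups were well apart, with irradiated replicate 2 the lowest of its group. The log2 fold change was 0.83 (SE 0.07, adjusted p = 8.19e-05), a fold of 1.78. TGFBR1 (chromosome 9, 99104038 to 99154192) measured 24.8, 27.2, 26.9, 28.2 and 28.7 CPM in controls and 29.6, 28.4, 25.8, 31.3 and 32.1 CPM in irradiated samples, which overlapped. Its log2 fold change was 0.11 (SE 0.06, adjusted p = 0.127), and without replicate 3 it was 0.16 (adjusted p = 0.0277). The log2 ratio of TGFBR1 to TGFBR2 per kilobase of exon went from -3.14 ± 0.13 (SD, n = 5) to -3.85 ± 0.17. This difference of -0.72 had an exact two-sided permutation p of 0.00794 and a sign-flip p of 0.0625, again the smallest possible.

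GDF15 was not called, and of the 8 genes tested it varied most between controls. On chromosome 19 (18374731 to 18389176), it measured 157.4, 136.2, 418.2, 90.6 and 120.6 CPM in controls and 222.4, 302.2, 213.8, 180.0 and 192.7 CPM in irradiated samples. Apart from control replicate 3, all irradiated samples were above all controls, and 4 of 5 pairs were higher. The log2 fold change was 0.49 (SE 0.28, adjusted p = 0.189), and without replicate 3 it was 0.83 (SE 0.10, adjusted p = 0.000886). Its receptor GFRAL had 1 count in the 10 samples.

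Genes of the p53 and stress-response lists did not all stand out in control replicate 3. Of 8 p53 targets, 4 were at their highest control value there (CDKN1A, ZMAT3, TP53INP1 and FDXR), 2 at their lowest (MDM2 and FAS) and 2 within the range of the other controls, and of 8 stress-response genes 4 were highest (ATF3, TRIB3, DDIT3 and PPP1R15A) and 4 within. Those outside the naming rule were added after their values were seen. The share of all genes at their highest or lowest control value in this sample was not computed, so these counts only describe the lists. Some margins were small. FDXR held 14.8 CPM against at most 14.2 CPM in the other controls, DDIT3 6.23 against at most 5.99 CPM, and MDM2 33.4 against at least 35.3 CPM. CDKN1A, the p53 target that arrests the cell cycle, held 207.6 CPM there against 66.7 to 80.9 CPM in the other controls, and ATF3, a stress-response factor, held 3.81 against 0.854 to 1.25 CPM. FSTL3, an activin-binding protein related to follistatin, held 421.1 against 122.4 to 216.2 CPM. ZMAT3, a p53-induced RNA-binding protein, held 118.0 against 82.9 to 89.3 CPM. MDM2, which degrades p53, held 33.4 CPM and the death receptor gene FAS 16.9 CPM. SKIL, a repressor of SMAD complexes, held 87.5 CPM against 170.7 to 197.7 CPM.

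All 8 p53 targets listed rose in irradiated RPTECs, with a median log2 fold change of 1.65. Of all genes tested 23.9% were higher, with a median of -0.01. The list was chosen with earlier results of these data known, so its count and median are a description and not a test. CDKN1A changed by 2.92 (SE 0.24), FAS by 2.13 (SE 0.15), MDM2 by 1.85 (SE 0.06) and BTG2, an antiproliferative gene, by 1.73 (SE 0.17), on the log2 scale with adjusted p-values of 9.11e-05, 4.79e-05, 6.52e-06 and 0.000186. Without replicate 3 the CDKN1A change was 3.21 (SE 0.10, adjusted p = 1.25e-05). Of 8 genes of the integrated stress response, 3 rose, 1 fell and 4 were not called, with a median of 0.12, so that the 4 of 8 called are near the 46.6% called over all genes. ATF3 (0.93, SE 0.31, adjusted p = 0.043) and the pseudokinase gene TRIB3 (0.73, SE 0.07, adjusted p = 0.000224) rose, as did SESN2, a stress-induced regulator of growth (0.37, SE 0.08, adjusted p = 0.00735). DDIT3 (-0.40, SE 0.12, adjusted p = 0.0306), a pro-apoptotic factor, fell, with 31.6% of its exon bases under genes of the opposite strand. The ATF3 call was lost under 7 of 13 alternatives (adjusted p up to 0.163), with a log2 fold change of 1.32 (adjusted p = 0.00125) without replicate 3, and the DDIT3 call under 4, each leaving out a replicate (adjusted p up to 0.104). ATF4, the factor at the centre of this response, measured 253.8 ± 21.2 CPM (SD, n = 5) in control and 242.9 ± 17.4 CPM in irradiated samples.

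**Figure D2:**
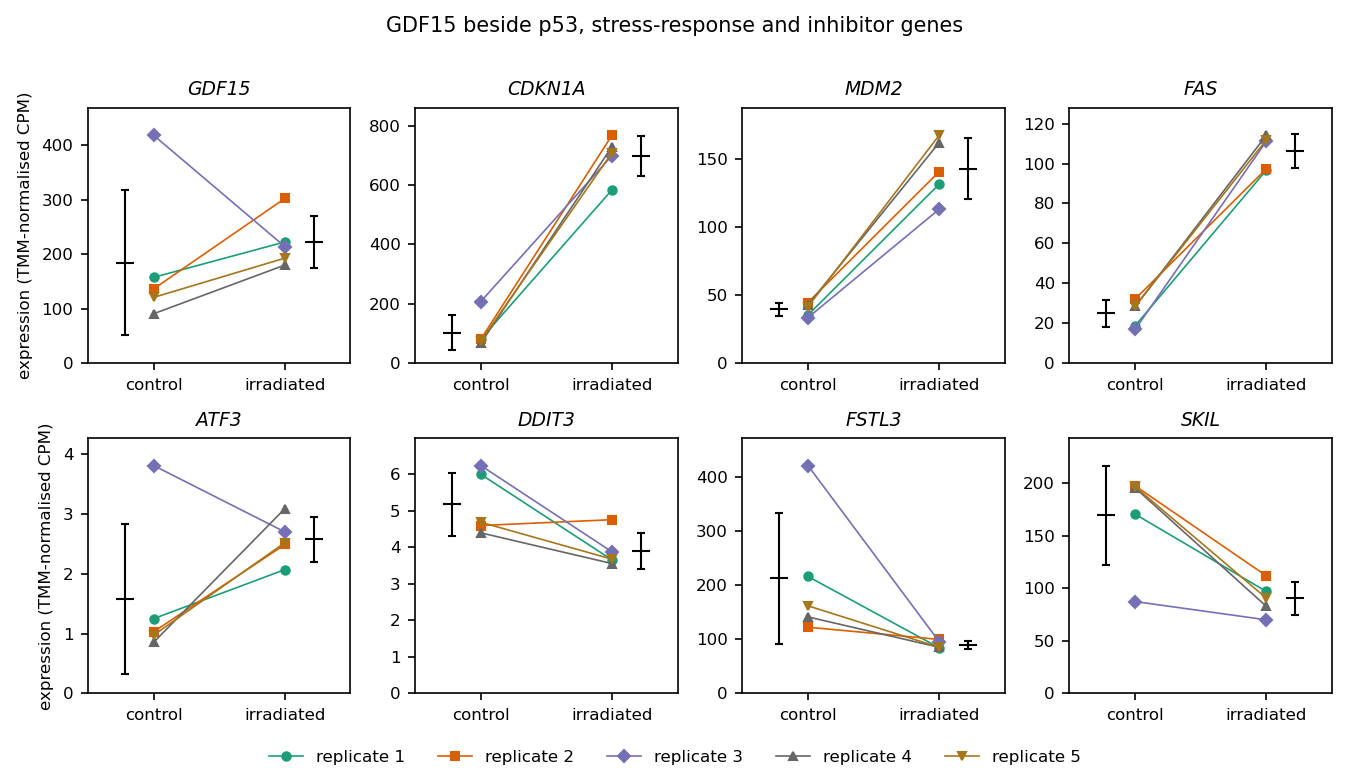
TMM-normalised CPM (vertical axes, each from 0) of GDF15, p53 targets (CDKN1A, MDM2, FAS), stress-response genes (ATF3, DDIT3) and inhibitors (FSTL3, SKIL) in each sample, with lines joining replicate numbers and black bars for the mean and SD of 5 samples. Control replicate 3 (diamonds) is highest of the controls in GDF15, CDKN1A, ATF3, DDIT3 and FSTL3, and lowest in MDM2, FAS and SKIL.

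Levels of different genes were compared as TMM-normalised RPKM, which divides by exon length. In controls GDF15 (88.5 ± 63.7 RPKM, SD, n = 5) led, followed by TGFB1 (53.6 ± 6.99), INHBB (41.6 ± 4.94), TGFBR2 (30.0 ± 3.61), SMAD7 (17.7 ± 2.24), TGFB2 (5.27 ± 0.771), TGFBR1 (3.40 ± 0.19) and TGFB3 (0.864 ± 0.13), and INHBA and FST were at most 0.013 RPKM. Neighbours in this order overlapped in their ranges for GDF15 and TGFB1 and for TGFB1 and INHBB. INHBA and FST also overlapped, and the other neighbours were apart. In irradiated samples TGFBR2 (53.2 ± 4.58 RPKM) came next after GDF15 (106.5 ± 22.9), ahead of TGFB1 (46.4 ± 1.56), with which it overlapped, and INHBB (23.5 ± 4.35). TGFBR1 (3.68 ± 0.312) came before TGFB2 (2.58 ± 0.566), with ranges of 3.23 to 4.02 and 1.85 to 3.36 RPKM that overlapped. The order was the same with the longest transcript as length.

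**Figure D3:**
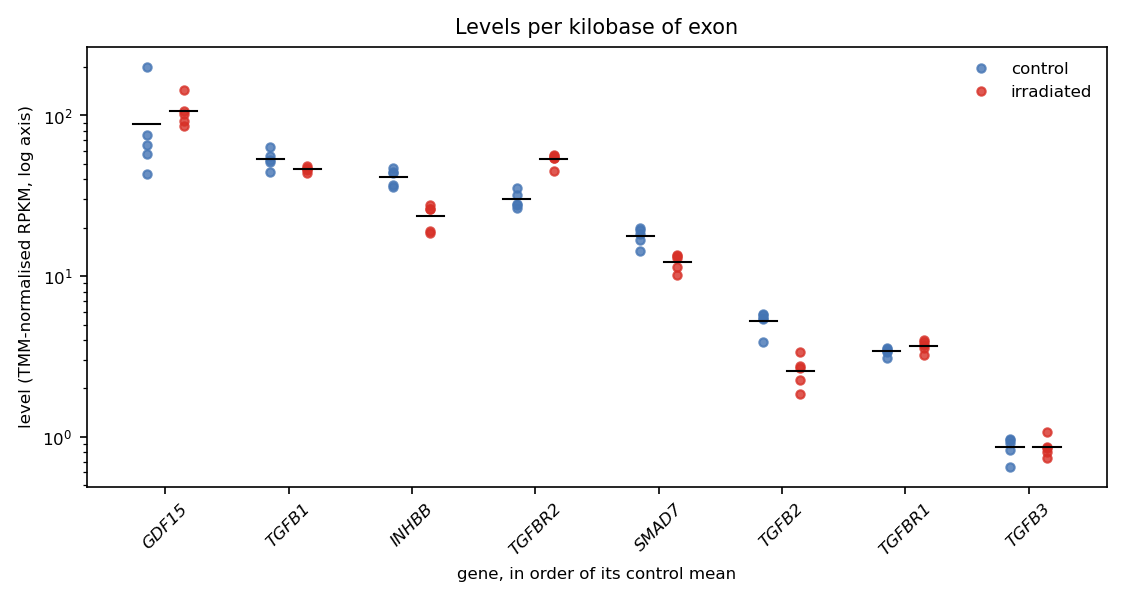
TMM-normalised RPKM (vertical log axis) of the 8 genes with at least 200 counts, in order of their control mean, with a point per sample and a line at the mean of 5 samples. TGFBR2 (30.0 to 53.2) crosses INHBB (41.6 to 23.5), and 1 control sample of GDF15 lies far above the other 4.

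The wider pathway showed changes in both directions. Of the genes in 7 further lists (other ligands, latency and activation, other receptors, SMAD transducers, inhibitors, TGF-beta targets and BMP targets), 73 of 91 were tested, with 25 higher, 24 lower and 24 not called, a median log2 fold change of 0.04, and 37 whose groups did not overlap. Over all genes tested 23.9% were higher, 22.7% lower and 26.7% did not overlap. Other ligands gave 3 higher, 2 lower and 6 not called of 11 tested, near the 46.6% called over all genes. BMP6 (1.22 to 3.78 CPM, log2 fold change 1.76, SE 0.17) and BMP2 (8.64 to 22.8 CPM, 1.41, SE 0.11), bone morphogenetic proteins that signal through other SMADs, rose with adjusted p-values of 0.000191 and 7.49e-05. INHA, whose product makes inhibin from the activin subunits, fell from 5.24 to 2.23 CPM (-1.30, SE 0.17, adjusted p = 0.000779). LEFTY1, an antagonist of nodal, fell from 0.64 to 0.0553 CPM (-3.40, SE 0.47, adjusted p = 0.000925). Without replicate 4 the LEFTY1 change was -2.71 (adjusted p = 0.00199). This gene has a close paralogue, LEFTY2, so that its counts are uncertain.

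Several genes that store and release latent TGF-beta rose. Of 11 tested, 5 were higher, 2 lower and 4 not called (median 0.31). The shares over all genes were 23.9% higher and 22.7% lower, or 46.6% called. FBN1, the fibrillin that anchors latent complexes, went from 260.6 ± 53.6 to 874.1 ± 165.8 CPM (SD, n = 5), a log2 fold change of 1.75 (SE 0.08, adjusted p = 1.27e-05). ITGB8, a subunit of an integrin that releases TGF-beta, went from 301.0 ± 39.9 to 747.1 ± 106.7 CPM (1.31, SE 0.08, adjusted p = 2.83e-05). The latent TGF-beta binding protein genes LTBP1 (0.91, SE 0.12, adjusted p = 0.000818) and LTBP2 (0.80, SE 0.08, adjusted p = 0.000243) rose in all 5 pairs. LTBP3 (82.1 to 62.7 CPM, -0.39, SE 0.05, adjusted p = 0.000716) and LTBP4 (49.8 to 43.6 CPM, -0.19, SE 0.04, adjusted p = 0.0106), the 2 genes of the list that fell, were lower in all 5 pairs. These 2 were named after their values were seen.

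Receptors other than TGFBR1 and TGFBR2 gave 1 higher, 5 lower and 6 not called of 12, near the 46.6% called over all genes. ACVRL1, a type I receptor best known in endothelium, fell from 2.19 to 0.693 CPM (-1.64, SE 0.20, adjusted p = 0.000475). ACVR1B, the activin type I receptor, fell from 284.1 ± 30.2 to 172.2 ± 27.3 CPM (-0.73, SE 0.09, adjusted p = 0.000428), and the activin type II receptor ACVR2B fell from 17.5 to 13.7 CPM (-0.36, SE 0.10, adjusted p = 0.018). ACVR2A was not called (-0.09, SE 0.09), nor was the co-receptor TGFBR3 (0.29, SE 0.14), which held 14.7 CPM in control replicate 3 against 6.94 to 8.44 CPM in the other controls. Without replicate 3 TGFBR3 was called higher (0.46, adjusted p = 0.00331). RET, the GDF15 co-receptor, rose at a low level from 0.256 to 0.476 CPM (0.93, SE 0.17, adjusted p = 0.00293). Without the replicate block 3 of the 12 were called, and RET was not (adjusted p = 0.0868). ACVR2B was not called without replicate 1 (adjusted p = 0.0578).

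Of the receptor-activated pair, SMAD3, which carries the TGF-beta signal to DNA, rose and SMAD2 was not called. SMAD3 measured 44.2, 49.2, 52.0, 42.2 and 40.8 CPM in controls and 103.1, 81.0, 112.6, 104.3 and 91.3 CPM in irradiated samples, apart in every sample. Its log2 fold change was 1.10 (SE 0.08, adjusted p = 6.04e-05). The common partner SMAD4 fell (-0.30, SE 0.06, adjusted p = 0.0046), ZFYVE9, which presents SMADs to the receptor, fell (-0.17, SE 0.04, adjusted p = 0.0162), and SMAD9, a BMP transducer, fell (-0.59, SE 0.18, adjusted p = 0.0279). SMAD2 changed by 0.04 (SE 0.06), from 136.8 to 140.8 CPM. The calls for SMAD9 and ZFYVE9 were lost without replicate 1 and without replicate 5, with adjusted p-values of 0.0772 and 0.0671 for SMAD9 and 0.0503 and 0.0539 for ZFYVE9, and that for SMAD9 also without replicate 3 (0.0675) and without replicate 4 (0.093). In all, 1 of the 7 transducers was higher, 3 lower and 3 not called, where 46.6% of all genes were called, and 2 of the 7 were called without replicate 1 and without replicate 5.

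Inhibitors went both ways, with 5 higher, 6 lower and 1 not called of 12, where 46.6% of all genes were called. NOG, the secreted BMP antagonist noggin, rose from 0.752 to 4.04 CPM (2.54, SE 0.30, adjusted p = 0.000433), and BAMBI, a decoy receptor, from 6.57 to 12.7 CPM (0.93, SE 0.12, adjusted p = 0.000625). FSTL3 fell from 212.6 to 90.0 CPM (-1.09, SE 0.23, adjusted p = 0.00696), and without replicate 3 by -0.82 (SE 0.15). SKIL fell from 169.7 to 90.5 CPM (-0.86, SE 0.12, adjusted p = 0.000973), and without replicate 3 by -0.99 (SE 0.08, adjusted p = 0.000145). SMAD6, which inhibits BMP signals, fell by 0.20 on the log2 scale (SE 0.05, adjusted p = 0.0109), and was not called without replicate 4 (adjusted p = 0.053) or replicate 5 (adjusted p = 0.052).

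Among 16 genes known as TGF-beta targets, 9 were higher, 5 lower and 2 not called, with a median of 0.85. For all genes tested, 23.9% were higher, 22.7% lower and the median was -0.01. This list too was chosen with earlier results of these data known, so its counts and median are a description and not a test. TGM2, a cross-linker of matrix, rose from 47.3 ± 13.5 to 316.4 ± 107.8 CPM (2.72, SE 0.15, adjusted p = 2.5e-05), and CCN2, a matricellular growth factor, from 77.9 to 168.7 CPM (1.20, SE 0.15, adjusted p = 0.000491). PTHLH, which encodes a parathyroid hormone-like peptide, rose from 3.43 to 16.7 CPM (2.32, SE 0.18, adjusted p = 6.69e-05). SNAI2, a repressor of epithelial genes, rose at a very low level, from 0.143 to 0.868 CPM (2.54, SE 0.26, adjusted p = 0.000205). The 5 that fell, named after their values were seen, were COL4A1 (2573 to 1604 CPM), BHLHE40 (288.3 to 139.3 CPM), TSC22D1 (354.5 to 143.0 CPM), TGFBI (60.2 to 43.7 CPM) and NEDD9 (29.8 to 24.2 CPM). BHLHE40 held 402.5 and TSC22D1 545.0 CPM in control replicate 3, the highest of the controls, and without replicate 3 their changes were -0.89 and -1.09 on the log2 scale. Of 4 BMP targets tested, the transcriptional inhibitor ID4 rose (1.32, SE 0.15, adjusted p = 0.000348) and its relative ID3 fell (-0.91, SE 0.14, adjusted p = 0.00147). The other 2 were not called, and the share called is near the 46.6% over all genes. Genes on the opposite strand cover 11.9% of the exon bases of CCN2, 10.4% of PTHLH, 12.8% of BHLHE40, 13.4% of TSC22D1 and 11.1% of MDM2, whose counts can be too low.

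**Figure D4:**
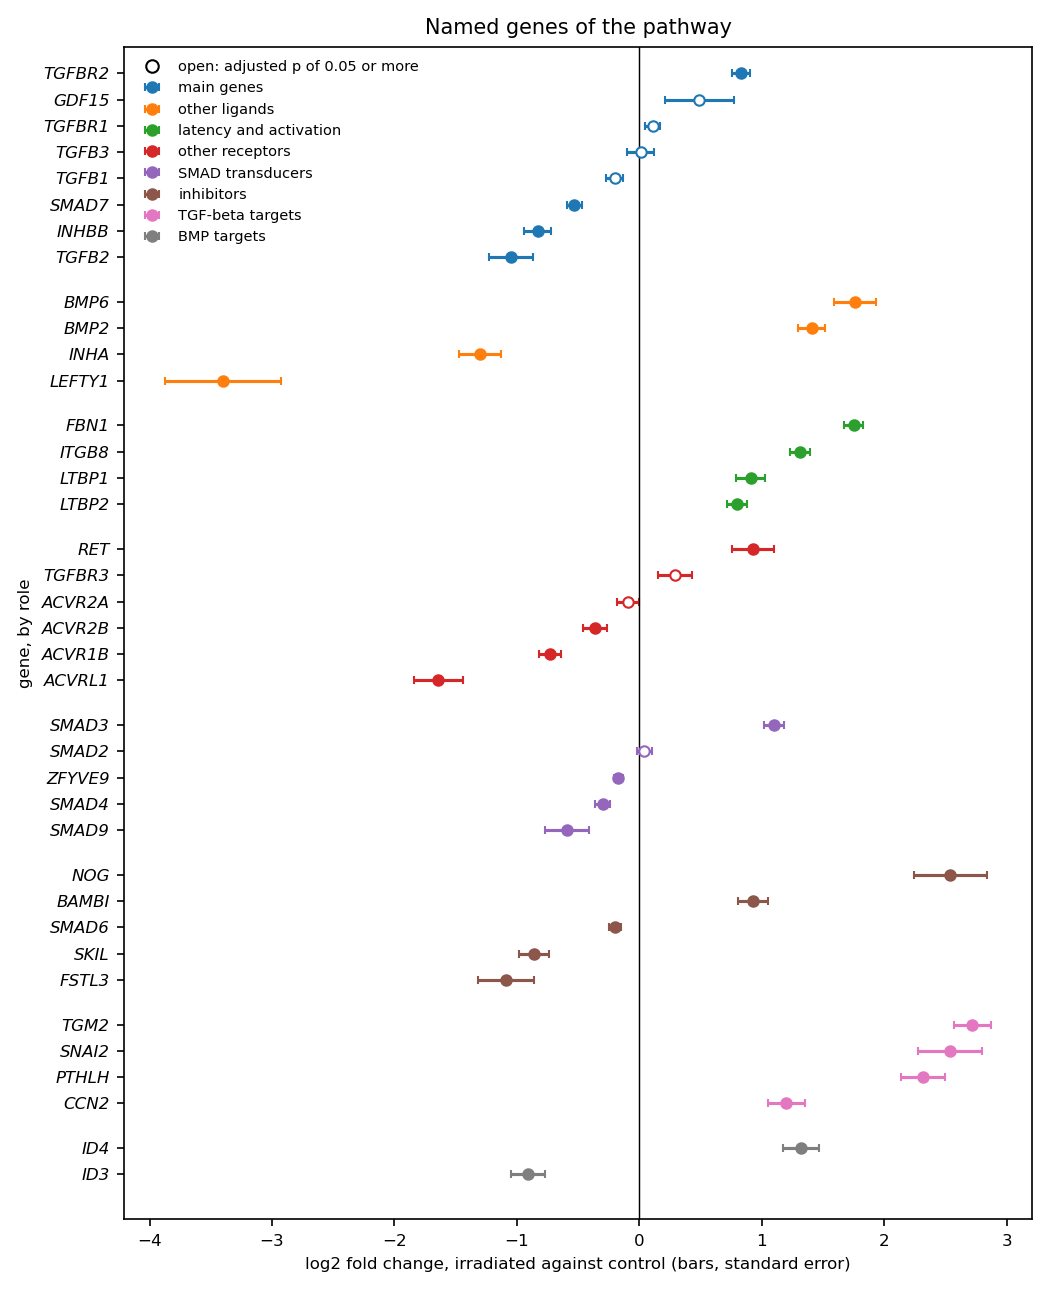
Fitted log2 fold changes with standard errors (horizontal axis, irradiated against control, 5 against 5) of the 8 tested main genes and the named genes of the pathway lists, by role, with filled points for an adjusted p-value under 0.05. SMAD3 is the one SMAD transducer with a filled point to the right of 0, and the largest rises are those of TGM2, NOG and SNAI2.

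The genes closest to GDF15 and TGFB2 in profile were found by the root mean square difference between centred log2 CPM profiles over the 10 samples, among 12842 genes with a mean of at least 1 log2 CPM. For GDF15 they were OVGP1 (0.291), RILP (0.299) and the ferritin pseudogene FTH1P20 (0.304), whose counts may come from its parent gene. The median over all candidates was 0.63. Like GDF15, these 3 were high in control replicate 3, at 5.22, 8.36 and 6.62 CPM against control means of 2.89, 4.23 and 3.56 CPM. They were chosen by likeness to GDF15 over these same samples, so this follows from the choice and is no separate evidence. For TGFB2 they were ZNF713 (0.126), the antisense gene ZFHX4-AS1 (0.134) and TKT (0.142), which encodes transketolase, against a median of 0.60. INHBA, below the limit for testing, was given no neighbours.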

How the data were processed

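Whole-number counts per gene from poly-A RNA-seq were deposited by the authors without normalisation, after adapter trimming with Cutadapt, alignment to GRCh38 with STAR and counting on GENCODE genes. The release is not given in the sources used here. Per the labels, the library kit and the cell line names of single samples differ from the study's methods, and the design text, RPTEC/TERT1, was followed. Of 61587 rows, 61369 matched a symbol. Counting was treated as unstranded, because 97.9% of the 425 long non-coding RNA genes fully covered by opposite-strand exons read 0, and 28.9% of those without overlap.

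Counts were tested with edgeR 4.0.16 in R 4.3.3 (TMM, glmQLFit, glmQLFTest, at least 200 counts over 10 samples, replicate block, Benjamini-Hochberg, 0.05), with the filter and block of the study's own model. Numbers were taken to pair samples because same-number deviations from group means correlated at 0.22 to 0.51 (different numbers, -0.35 to 0.32). No pair of replicates agreed within sampling noise (chi-square per gene of at least 7.68). Replicates 4 and 5 were closest in both groups, at 13.1 in control and 7.68 in irradiated samples, against 35.4 to 187 for other pairs. Control 4 with irradiated 5 (0.295) and control 5 with irradiated 4 (0.317) correlated above same-number pair 2 (0.217). The 5 pairs may therefore not be fully independent, and the cause was not tested. Lengths and positions came from GENCODE on GRCh38. Ratios were tested by exact permutation. Alternatives were DESeq2 1.42.0, limma 3.58.1 (voom), other scalings and filters, no block and each replicate left out. Named genes are the 10 main genes, up to 4 called genes of each list with the largest changes, a fixed set of receptors, SMADs, targets and stress genes, and the 3 nearest profiles. The members and lists were chosen with earlier results of these data known. Results of some list genes are not reported here. Figures were drawn with matplotlib 3.10.9.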

Additional observations from a re-analysis of the deposited data

Results flagged for a closer look

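A sample was marked where its gap to the nearest of its group, relative to the group's range, exceeded Dixon's 95% critical value of 0.71 for 5 samples. This held in 13 of 96 groups examined, where chance would give about 4.8. Of these, 5 were in control replicate 3 and 4 in irradiated replicate 2.

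In control replicate 3, GDF15 measured 418.2 CPM (others 90.6 to 157.4), CDKN1A 207.6 CPM (others 66.7 to 80.9), ATF3 3.81 CPM (others 0.854 to 1.25) and TGFBR3 14.7 CPM (others 6.94 to 8.44), all high. SKIL was low there, at 87.5 CPM (others 170.7 to 197.7).

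In irradiated replicate 2, the library with the fewest counts, TGFBR2 was low at 310.3 CPM (others 370.0 to 386.6). ACVRL1 was high at 1.09 CPM (others 0.554 to 0.691), as were ACVR1B at 219.5 CPM (others 152.5 to 167.2) and DDIT3 at 4.75 CPM (others 3.55 to 3.87). In each of these 4 genes replicate 2 lay nearer to the controls than the other irradiated samples did.

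In control replicate 2, TGFB2 was low at 23.7 CPM (others 32.9 to 35.0) and BMP2 high at 10.9 CPM (others 7.82 to 8.71). INHA was high in control replicate 1 at 6.96 CPM (others 4.43 to 5.12), and ATF4 was high in irradiated replicate 3 at 273.7 CPM (others 232.7 to 239.6). The causes were not tested.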

How the results depend on the processing

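The calls for TGFB2, INHBB, TGFBR2 and SMAD7 kept their direction and their side of the threshold under all 13 alternatives, with log2 fold changes of -1.24 to -0.89, -0.94 to -0.72, 0.75 to 0.87 and -0.60 to -0.49. TGFB1 passed the threshold with DESeq2 (-0.20, adjusted p = 0.0393), a minimum of 1 count (-0.24, 0.0107), library size only (-0.28, 0.0176), upper-quartile normalisation (-0.23, 0.0306) and without replicate 2 (-0.25, 0.0225). With each replicate left out, the log2 fold changes ran from -0.25 to -0.13 for TGFB1, -1.24 to -0.89 for TGFB2, -0.08 to 0.06 for TGFB3, -0.94 to -0.72 for INHBB, 0.32 to 0.83 for GDF15, 0.08 to 0.16 for TGFBR1, 0.78 to 0.87 for TGFBR2 and -0.57 to -0.49 for SMAD7. GDF15 at 0.83 and TGFBR1 at 0.16, both without replicate 3, passed the threshold. A minimum of 1 count called 7 of the 10 main genes in place of 4 (21.5% of all genes in that fit, against 46.6%), since it lets INHBA and FST be tested and TGFB1 pass, and leaving out replicates called 4 to 6. The pathway lists gave 43 to 53 called genes with a replicate left out, against 49, and all genes 6529 to 8652 (3557 to 4605 higher, 2943 to 4047 lower). A replicate left out moved the differences of the log2 ratios to between -0.99 and -0.76 for TGFB2 to TGFB1 and between -0.76 and -0.61 for TGFBR1 to TGFBR2, with a smallest exact p of 0.0286 at 4 against 4. Without the replicate block 7006 genes were called in place of 8857, with 0 of the 8 tested main genes changing call. With pairs as the replicate block, sign flips of the ratio differences (-0.84 and -0.72) gave 0.0625, a design too small to pass 0.05. With library size only, 38.0% of called genes were higher, against 51.4%, and the median log2 fold change of all genes was -0.086. Of 520 further comparisons of 40 other named genes, 498 kept direction and call, 21 lost the call and 1 gained it. The 8 calls among other ligands with a minimum of 1 count replaced 5, and the stress-response list gave 2 calls in place of 4 without replicate 1, 4 or 5. Longest transcript lengths moved RPKM values but not their order. The causes were not tested. INHBA and FST rest on 132 and 40 counts over the 10 samples.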
